A study of Capra hircus with 3 samples.

Results

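The miRNAs miR-451, miR-144 and miR-486, which are known from red blood cells, were followed in goat skin through the hair cycle. Their reads were the clean tags, that is, the distinct sequences left after filtering, that shared their first 18 nt with a tag the authors had listed for the precursor of one of these miRNAs, on either arm. The 3 miRNAs were chosen by name among 336 precursors with listed tags, and the 45 tags listed for them held 12 different starts of 18 nt. They took 224 of 1308819 distinct tags in anagen, 311 of 1324013 in catagen and 261 of 2083543 in telogen. The libraries came from skin of adult Shanbei White cashmere goats in the growth stage of the hair follicle (anagen), its regression (catagen) and its rest (telogen), with no other treatment named in the labels. Each stage had 1 library, made from the mixed skin of 10 goats, so the spread between animals was not measured, and no difference below has a replicate check. Whether the same goats gave skin at every stage is not stated in the sources used here.

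Red blood cells keep no nucleus but carry a store of miRNAs from their precursors in the bone marrow. miR-451 and miR-144 are known to be cut from a single primary transcript that the factor GATA1 switches on in erythroid cells, and miR-486 is known from the same lineage and also from muscle. Most miRNAs are cut out of their hairpin by the enzyme Dicer, whereas the hairpin of miR-451 is too short for it, is cut within its far strand by the Argonaute protein AGO2, and is then trimmed back from the 3′ end. In the goat gene table of RefSeq (assembly ARS1.2), which names 264 miRNA genes, MIR451 and MIR144 lie on the same chromosome with 0 other genes between them. MIR486 was not named in it.

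The most abundant tag of each arm is shown because the counts rest on these starts. Capitals mark the seed, bases 2 to 8, with which a miRNA pairs to its targets.
miR-451-5p: aAACCGTTaccattactgagttt
miR-451-3p: tTAGTAATggtaacggttct
miR-144-3p: tACAGTATagatgatgtactct
miR-144-5p: tGGGATATcatcatatact
miR-486-5p: tCCTGTACtgagctgccccga
These seeds differed from each other, and 0 of the 457 other arms shared any of those of miR-451-5p, miR-144-3p, miR-144-5p or miR-486-5p in full. An arm of miR-101 shared bases 2 to 7 of miR-144-3p. Sequences are given in the letters of the deposited tags, with T for U.

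Levels are given as TPM, reads per 1000000 clean reads, with exact Poisson 95% intervals that cover counting error only, since reads carry no molecular identifiers. Anagen was sequenced to 15997828 clean reads, catagen to 18111912 and telogen to 27016012. In these, 3 reads, the limit below which a level cannot be told from 0, were worth 0.188, 0.166 and 0.111 TPM. Conserved arms held 45.0%, 45.1% and 36.2% of the clean reads. Together the 3 miRNAs took 20986 anagen reads (1312 TPM), 38713 catagen reads (2137 TPM) and 23733 telogen reads (878.5 TPM). This was 0.291%, 0.474% and 0.243% of the reads of all conserved arms built here. These arms came from a shortened copy of the authors' list that lacks main tags of some abundant miRNAs. For example, let-7g, among the most abundant miRNAs of the study in every stage, held only 2 anagen and 28 telogen reads here. The shares of the 3 miRNAs in conserved reads are therefore too large, and ranks among the arms can lie too near the top.

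miR-451-5p, the erythroid miRNA that bypasses Dicer, was the most abundant of these arms in anagen and catagen. It had 13804 reads in anagen, at 862.9 TPM (848.5 to 877.4), 22935 in catagen, at 1266 TPM (1250 to 1283), and 11655 in telogen, at 431.4 TPM (423.6 to 439.3). Among the 458 arms with reads it ranked 20, 22 and 30, places that arms missing from the shortened list could lower. Its opposite strand, miR-451-3p, had 1 read in anagen and 0 in catagen and in telogen, all under the limit of 3 reads.

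miR-486-5p, known from both erythroid cells and muscle, had a different order of libraries. It had 5353 reads in anagen, at 334.6 TPM (325.7 to 343.7), 14112 in catagen, at 779.2 TPM (766.4 to 792.1), and 11826 in telogen, at 437.7 TPM (429.9 to 445.7). Its lowest library was therefore anagen, whereas that of miR-451-5p was telogen. In telogen both arms stood at nearly the same level, and their intervals overlapped.

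miR-144-3p, the neighbour of miR-451 in the primary transcript, was far less abundant and had the widest range. It had 1664 reads in anagen, at 104 TPM (99.1 to 109), 1384 in catagen, at 76.4 TPM (72.4 to 80.6), and only 194 in telogen, at 7.18 TPM (6.21 to 8.27). Its rank among the arms went from 50 in anagen to 65 in catagen and 163 in telogen. The other arm, miR-144-5p, had 164 reads in anagen, at 10.3 TPM (8.74 to 11.9), 282 in catagen, at 15.6 TPM (13.8 to 17.5), and 58 in telogen, at 2.15 TPM (1.63 to 2.78). Telogen was thus the lowest library for both arms of miR-144 and for miR-451-5p, and the plot of levels by library shows this order.

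**Figure D1:**
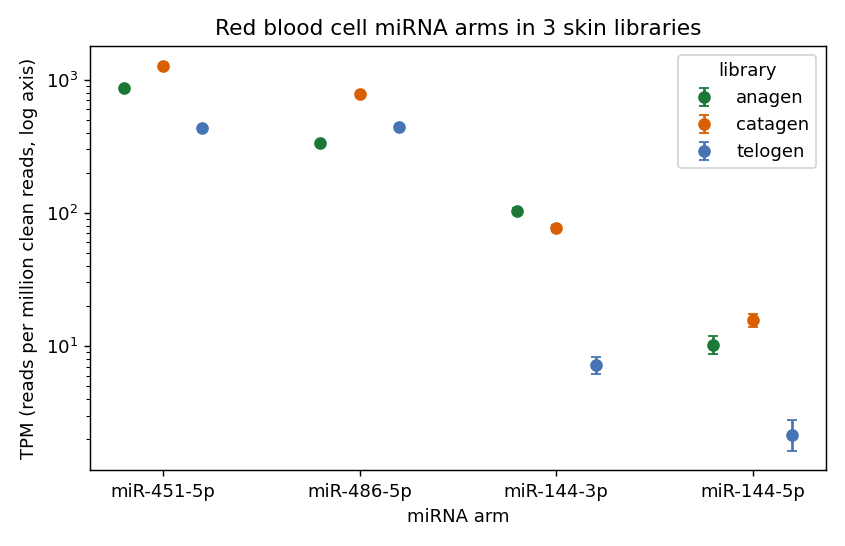
TPM of the 4 arms (log axis) in the anagen, catagen and telogen libraries, 1 library each; bars are exact Poisson 95% intervals, which are smaller than the points where they cannot be seen. miR-144-3p lies at 104 and 76.4 TPM in anagen and catagen and at 7.18 TPM in telogen, while miR-486-5p is lowest in anagen.

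The libraries were compared in pairs by the Audic-Claverie exact test (two-sided), the p-value formula that the methods of the study give. A called arm is one whose log2 ratio is over 1 in size with p under 0.01. The test compares libraries, not stages, because it knows no spread between goats. Between anagen and telogen 3 of the 4 arms with at least 1 TPM were called, all higher in anagen, against 24.5% of 286 arms tested, of which 14 were higher in anagen and 56 lower. miR-144-3p was 14.5-fold higher in anagen (log2 ratio 3.86, 95% interval 3.64 to 4.08) and miR-144-5p 4.78-fold (2.26, 1.81 to 2.71). miR-451-5p had a log2 ratio of 1.00 (0.96 to 1.04), so that its call lay on the limit itself, and it was lost at 0.95 when only tags of 21 nt or longer were counted and at 0.69 when reads were scaled to those of all conserved arms. miR-486-5p was not called, with a log2 ratio of -0.39 (-0.43 to -0.34).

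Between catagen and telogen the same 3 arms were called higher in catagen, 3 of 4 against 12.9% of 287 arms, of which 20 were higher in catagen and 17 lower. miR-144-3p differed 10.6-fold (log2 ratio 3.41, 3.19 to 3.64), miR-144-5p 7.25-fold (2.86, 2.45 to 3.29) and miR-451-5p 2.94-fold (1.55, 1.52 to 1.59). The value of miR-486-5p was 0.83 (0.80 to 0.87), under the limit. These 2 comparisons share the telogen library.

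Between anagen and catagen 1 of 4 arms was called, against 27.8% of 288 arms, of which 15 were higher in anagen and 65 lower. miR-486-5p was 2.33-fold lower in anagen, with a log2 ratio of -1.22 (-1.26 to -1.17). The log2 ratio of miR-451-5p was -0.55 (-0.58 to -0.52), that of miR-144-5p was -0.60 (-0.89 to -0.32) and that of miR-144-3p, alone with a positive value, was 0.44 (0.34 to 0.55). For comparison, the median log2 ratio of all arms that reached 100 reads in both libraries was -0.36 for this pair (148 arms), -0.17 for anagen over telogen (149 arms) and 0.14 for catagen over telogen (166 arms). Percentile 95 of these arms was 0.86 for anagen over telogen and 1.31 for catagen over telogen, and the log2 ratios of miR-144-3p, miR-144-5p and miR-451-5p lay above it in both pairs, although miR-144-5p, with 58 reads in telogen, is not among them.

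The largest adjusted p of the 12 values was 4.54e-05 (Audic-Claverie exact test, Benjamini-Hochberg adjustment over all arms tested). With a biological coefficient of variation set to 0.4, edgeR's exact test gave p = 3.9e-05 for miR-144-3p between anagen and telogen and 0.000203 between catagen and telogen. By the same exact test miR-144-5p had p = 0.0121 and 0.00178 for these pairs, and the calls of miR-451-5p (p = 0.234 and 0.0682) and of miR-486-5p between anagen and catagen (p = 0.149) were lost. That coefficient was assumed, not measured.

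A ratio of arms within a library needs no scaling. For each read of miR-144-3p there were 8.30 reads of miR-451-5p in anagen, 16.6 in catagen and 60.1 in telogen, although both miRNAs are known to leave the same transcript. With tags of 21 nt or longer the numbers were 26.6, 19.7 and 129, so that telogen stayed the farthest apart while anagen and catagen changed places. Within the hairpin of miR-144, 100 reads of the 3p arm were accompanied by 9.86 reads of the 5p arm in anagen (interval of the ratio 0.0834 to 0.116), by 20.4 in catagen (0.179 to 0.232) and by 29.9 in telogen (0.219 to 0.403). With tags of 21 nt or longer this ratio was 0.0532, 0.117 and 0.295, in the same order of libraries. The ratio of miR-486-5p to miR-451-5p was 0.388 in anagen, 0.615 in catagen and 1.02 in telogen (0.989 to 1.04).

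The length ladder of miR-451-5p was read from the tags with the main 5′ start that match the listed sequence throughout, 13618 of 13804 reads in anagen, 22597 of 22935 in catagen and 11486 of 11655 in telogen. They differ in where the 3′ end was left. They are shown from 22 nt because the steps that follow rest on them, with the bases after base 22 in capitals.
22 nt: aaaccgttaccattactgagtt
23 nt: aaaccgttaccattactgagttT
24 nt: aaaccgttaccattactgagttTA
25 nt: aaaccgttaccattactgagttTAG
26 nt: aaaccgttaccattactgagttTAGT
28 nt: aaaccgttaccattactgagttTAGTAA
The listed tags of both arms joined over 7 bases into 41 nt, so the bases of the ladder beyond base 21 are also the first bases of the 3p arm.

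The 23 nt form led in every library. It had 7652 reads in anagen (56.2% of the ladder), 14212 in catagen (62.9%) and 6555 in telogen (57.1%). The 22 nt form followed, with 3423 reads (25.1%), 4557 (20.2%) and 2682 (23.3%). The order of these forms was the same in all 3 libraries although their levels differed.

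Above 23 nt the ladder went down in unequal steps. There were 927, 1451 and 1010 reads of 24 nt in anagen, catagen and telogen, and 259, 514 and 350 of 25 nt. The step from 25 to 26 nt was nearly level, with 199, 528 and 363 reads of 26 nt, or 0.768, 1.03 and 1.04 times those of 25 nt. The next step was the steepest of the ladder. Only 3, 3 and 2 reads had 27 nt, and 1, 2 and 3 had 28 nt, while from 29 to 32 nt the ladder held 0 reads in each library, which allows up to 3 reads of each length.

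Below 22 nt the libraries differed more. The 21 nt form had 370, 879 and 252 reads and the 20 nt form 315, 369 and 151. The 19 nt form had 112, 29 and 40 reads, and the shortest that the filter kept, 18 nt, had 357, 53 and 78. Anagen had the largest share at 18 nt, 2.62% of its ladder against 0.235% in catagen and 0.679% in telogen.

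**Figure D2:**
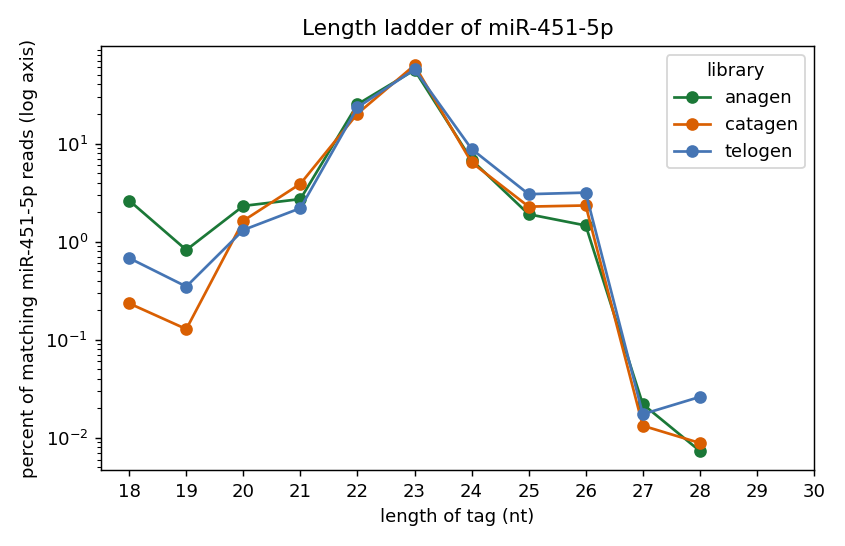
Percent of the matching miR-451-5p reads (log axis) at each tag length in nt, 1 line per library; lengths with 0 reads are not drawn. The lines peak at 23 nt (56.2%, 62.9% and 57.1%), are nearly level from 25 to 26 nt and drop steeply at 27 nt.

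Of all miR-451-5p reads, 10.7% were over 23 nt in the anagen library (Wilson 95% interval 10.2 to 11.2), 11.8% in the catagen library (11.4 to 12.3) and 15.9% in the telogen library (15.2 to 16.5). For miR-486-5p, which Dicer is known to cut, the shares were 3.06%, 3.22% and 4.96%, and over the reads of all other conserved arms 3.65%, 3.67% and 4.56%. All of these were largest in telogen. Among the 144 other arms with at least 100 reads in every library, however, percentile 95 of this share was 40.2%, 38.0% and 40.9%, so miR-451-5p lay within their range.

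miR-144-3p, whose seed also matches miR-101 over bases 2 to 7, came in lengths that differed between libraries. Its listed tags end at base 20, and the longer tags are shown with the bases after it in capitals. Whether those bases belong to the goat precursor could not be read from the sources used here.
18 nt: tacagtatagatgatgta
19 nt: tacagtatagatgatgtac
20 nt: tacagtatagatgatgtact
21 nt: tacagtatagatgatgtactC
22 nt, ending in T: tacagtatagatgatgtactCT
22 nt, ending in A: tacagtatagatgatgtactCA

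In catagen the 22 nt tag ending in T led, with 780 of 1384 reads (56.4%), against 194 of 1664 in anagen (11.7%) and 25 of 194 in telogen (12.9%). The 20 nt tag led in the other 2 libraries, with 494 reads in anagen (29.7%) and 53 in telogen (27.3%), and had 117 in catagen (8.45%). The tags of 19 nt had 392, 83 and 37 reads and those of 18 nt 285, 45 and 15. The 21 nt tag had 190, 167 and 37 reads, and the 22 nt tag ending in A had 73, 106 and 17. Anagen and telogen were thus alike in which form led, and catagen stood apart.

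**Figure D3:**
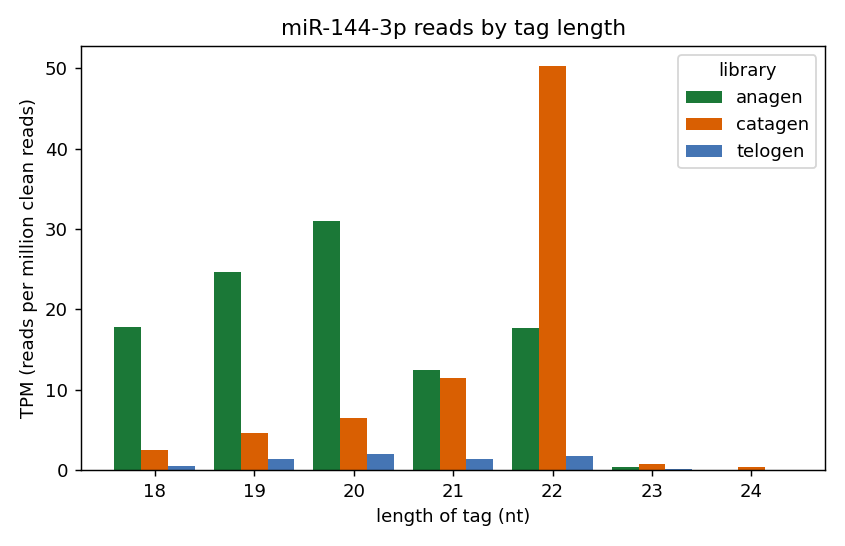
TPM of miR-144-3p (linear axis) by tag length in nt, 1 bar per library. Tags of 18 to 20 nt together have 73.5 TPM in the anagen, 13.5 in the catagen and 3.92 in the telogen library, and the tallest catagen bar is at 22 nt.

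Because of these lengths the anagen and catagen libraries changed order with the tags that were counted. Tags of 18 to 20 nt had 73.5, 13.5 and 3.92 TPM in anagen, catagen and telogen, a log2 ratio of anagen over catagen of 2.44 (2.24 to 2.65). Tags of 21 nt or longer had 30.6, 62.9 and 3.26 TPM, and their log2 ratio was -1.04 (-1.20 to -0.89). Telogen was the lowest library on either count, 9.38-fold under anagen and 19.3-fold under catagen in the longer tags. For miR-144-5p the longer tags gave a log2 ratio of anagen over catagen of -2.18 (-2.84 to -1.56), and 26 reads each in anagen and telogen, 1.62 and 0.962 TPM, which were not called.

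Tags of 18 to 20 nt were the larger part of miR-144-3p in anagen, 70.6% (68.4 to 72.7), and in telogen, 54.6% (47.6 to 61.5), but 17.7% in catagen (15.8 to 19.8). For miR-144-5p the shares were 84.1%, 52.8% and 55.2%. miR-451-5p had 5.71%, 1.99% and 2.31%, and miR-486-5p 9.53%, 1.30% and 1.79%. Each of the 4 arms had its largest share in anagen, and so did the other conserved arms together, with 5.23%, 1.90% and 2.90%. The filtering record pointed the same way for anagen, where 3.38% of high-quality reads were under 18 nt, against 2.66% in catagen and 0.566% in telogen. The part of RNA length or of the size cut of a library in these shares was not tested. The arms of miR-144 exceeded the median of the 144 other arms, which was 7.93%, 2.30% and 3.49%, in each library. Percentile 95 of those arms was 61.8%, 25.5% and 42.6%, which both arms exceeded in anagen and telogen and miR-144-5p also in catagen. For miR-144-3p this class takes in the whole listed sequence of 20 nt, so its share is not a measure of shortening.

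**Figure D4:**
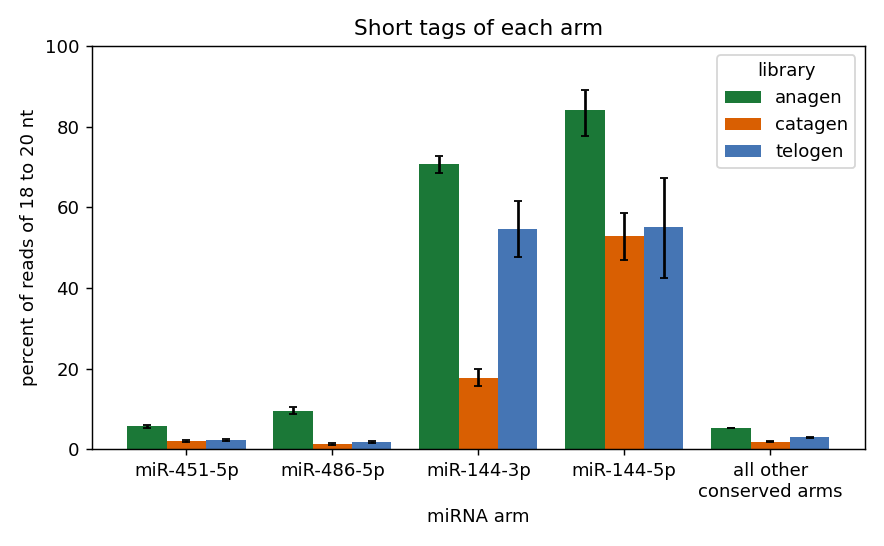
Percent of reads of 18 to 20 nt in each arm and in all other conserved arms together, 1 bar per library with Wilson 95% intervals. Both miR-144 arms lie far above the other arms, and every group of bars is tallest in anagen (70.6% for miR-144-3p, 5.23% for the other arms).

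The 5′ ends were nearly uniform in 3 of the arms. The lowest share of the main start in a library was 99.81% of the reads of miR-451-5p, 99.88% of those of miR-144-3p and 99.46% of those of miR-486-5p, each in anagen. miR-144-5p was the exception. With the main start its 19 nt tag had 95, 96 and 17 reads, its 20 nt tag 38, 46 and 13, and its 21 nt tag 10, 59 and 9, so that the longest of these was most frequent in catagen. Tags that started at its base 3 had 10 of 164 reads in anagen, 45 of 282 in catagen and 11 of 58 in telogen, and their seed, in capitals, is another than that of the main form.
miR-144-5p from base 3: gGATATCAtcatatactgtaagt
Of these reads 10, 38 and 11 were 21 nt or longer, against 16 of 154, 95 of 237 and 15 of 47 with the main start.

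The 3′ ends of miR-486-5p often carried a base that does not follow the listed sequence. The base after base 22 is shown in capitals, and the form ending in G is the one that continues that sequence.
22 nt: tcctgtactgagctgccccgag
23 nt, listed: tcctgtactgagctgccccgagG
23 nt with T: tcctgtactgagctgccccgagT
23 nt with A: tcctgtactgagctgccccgagA
The 21 nt tag led, with 2013 anagen, 6062 catagen and 3732 telogen reads, followed by the 22 nt tag with 1210, 4409 and 3537. The 23 nt tag with T had 674, 1416 and 1983 reads and that with A 475, 788 and 1105. The tag with the listed G had only 12, 35 and 48. For each 100 reads of the 22 nt tag there were thus 55.7, 32.1 and 56.1 with an added T, and 0.992, 0.794 and 1.36 with the listed base.

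Over all miR-486-5p tags, 69.9% of the anagen, 75.7% of the catagen and 63.7% of the telogen reads matched the listed sequence throughout. A single added base was found on 24.9% (23.8 to 26.1), 19.4% (18.8 to 20.1) and 29.6% (28.8 to 30.5), of which T made up the most, 14.4%, 12.1% and 18.6% of reads, and A 9.86%, 6.85% and 10.8%. The intervals of the 3 libraries did not overlap, with catagen lowest and telogen highest, but they cover counting error only and not the spread between goats. On miR-451-5p a single added base was found on 0.558%, 0.767% and 0.764% of reads, and its leading form of this kind, the 23 nt tag with an added T, had 34, 73 and 32 reads. A T or A at the 3′ end is known to be put on miRNAs by terminal nucleotidyl transferases.

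**Figure D5:**
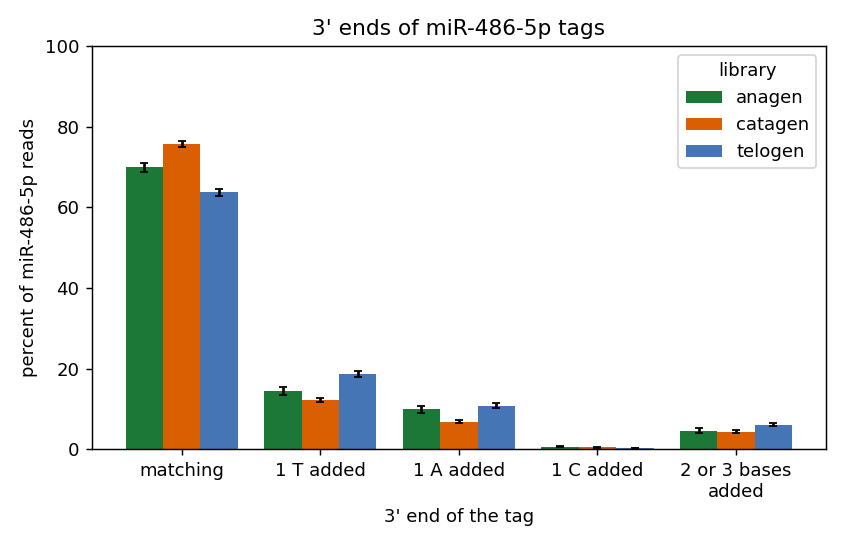
Percent of miR-486-5p reads whose 3′ end matches the listed sequence or carries added bases, 1 bar per library with Wilson 95% intervals. An added T is found on 14.4%, 12.1% and 18.6% of reads and an added C on under 1%.

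The pattern over the libraries was also compared with that of 144 other arms with at least 100 reads in each, by the Euclidean distance between centred log2 TPM values, which rests on only 3 libraries and is a description. An arm of miR-211 was nearest to miR-451-5p (distance 0.190), with 14.1, 18.9 and 7.77 TPM, followed by arms of miR-542 (0.409) and miR-885 (0.437). Nearest to miR-486-5p was an arm of miR-497 (0.126), with 52.5, 109 and 62.2 TPM, followed by miR-3432-2 (0.164) and miR-432 (0.182). For miR-144-3p the nearest of the 144 arms, an arm of miR-1298 with 31.1, 28.2 and 8.33 TPM, was at 1.49, and miR-211 (2.18) and miR-23b (2.21) followed. The nearest to miR-144-5p were miR-1298 (0.793), miR-6529 (1.08) and miR-211 (1.22). miR-451-5p lay at 0.981 from miR-486-5p and at 2.05 from miR-144-3p, and both arms of miR-144 lay at 1.15 from each other.

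Markers of other cells in the skin pieces were counted by the same rule, except liver miR-122. Fewer red blood cells in a skin piece and less miRNA in each cannot be told apart in these bulk samples. The 10 other miRNAs known to be abundant in red blood cells, such as miR-185, miR-93 and miR-15a, which other cells also express, summed to 872 TPM in anagen, 1257 in catagen and 1265 in telogen, so that the lowest sum was in anagen. The sum rested mostly on miR-185, with 507, 593 and 671 TPM, and its members differed, since miR-25 (27.2, 27.1 and 19.9 TPM) and miR-15b (14.7, 13.97 and 12.2 TPM) were lowest in telogen. Between anagen and telogen 0 of their 11 tested arms were called higher in anagen and 2, both of miR-15a, were called lower, beside 14 and 56 of the 286 arms tested. For miR-16a, miR-16b and miR-92a the shortened copy of the list held only tags with few reads. Of the 10, 6 had an arm with at least 100 reads in every library. Among white blood cell miRNAs, 4 of 5 had listed tags and miR-150 had none in that copy. A tag absent from the copy does not show that the miRNA was absent, and the sums leave it out. The white blood cell miRNAs with tags summed to 1539, 1842 and 2216 TPM. Most of this came from the joined arm of miR-146a and miR-146b, with 1408, 1659 and 1992 TPM, and the members differed. miR-223 of myeloid cells stood at 10.2, 15.5 and 58.8 TPM, whereas miR-155 was highest in catagen (43.8, 77.7 and 55.3 TPM). The arms of miR-142 had 74.3, 78.0 and 90.7 TPM and 2.62, 11.8 and 17.6 TPM. miR-126 of endothelium stood at 38.9, 31.97 and 37.1 TPM.

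Muscle miRNAs, 4 of 4 with reads, summed to 4117, 78790 and 21410 TPM in anagen, catagen and telogen. This was the order of libraries of miR-486-5p, which muscle is also known to express. The order was not particular to muscle, since miR-155 and an arm of miR-93 (151.6, 326.7 and 245.7 TPM) had it too. The sizes also differed, with a log2 ratio of anagen over catagen of -4.24 for the main arm of miR-1 and -1.22 for miR-486-5p. Liver miR-122, counted by the mature sequence of the study's primer table and not by listed tags, had 24.7, 1.99 and 1.22 TPM. With all its tags counted miR-144-3p had this order of libraries, but not with tags of 21 nt or longer (30.6, 62.9 and 3.26 TPM). Epithelial miRNAs, 5 of 6 with listed tags and miR-203 with none in the shortened copy, summed to 1198, 1945 and 2019 TPM. Most of this came from miR-205, and miR-200c had only 2, 5 and 18 reads. In contrast, miR-183 (158, 108 and 101 TPM) and miR-200a (1.37, 1.16 and 0.629 TPM) were highest in anagen. The part of these cell types in the differences of miR-451, miR-144 and miR-486 was not tested.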

How the data were processed

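Small RNA of goat skin was sequenced on an Illumina/Solexa Genome Analyzer, with 1 library for each of 3 stages. The authors removed low-quality, adapter, poly(A) and under-18-nt reads and collapsed the rest, and the deposited values are each tag's count of reads, without normalisation. The program of this filtering step is not given in the sources used here, and no alignment enters the counts. The authors had listed tags for conserved miRNAs, of which the copy used is shortened (5997 lines, 2697 different tags). The members and lists were chosen with earlier results of these data known.

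Here each clean tag was assigned to an arm by its first 18 nt. Arms that share such a start were joined (458 arms), and listed tags overlapping by 14 nt were joined into sequences. TPM divides reads by the clean reads of the library, and arms with at least 1 TPM in 1 library of a pair were tested (two-sided Audic-Claverie exact test, called where the log2 ratio exceeds 1 in size at p under 0.01). Intervals of ratios are exact (Clopper-Pearson) and those of shares Wilson, at 95%. A quasi-likelihood test needs replicates and could not be fitted. The code was tested on simulated data. Python 3.11.15, numpy 2.4.6, scipy 1.17.1, R 4.3.3 and edgeR 4.0.16 were used.

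All arms of the 3 miRNAs with a listed tag are named, as are all matching miR-451-5p lengths. Of tags with at least 1% of the reads of another arm, those with the most reads are printed. The 3 leading added-base forms are printed for miR-144-3p, only some of them for miR-451-5p and miR-486-5p, and none for miR-144-5p. Also named are the 3 arms nearest in pattern and the marker lists (red and white blood cells, endothelium, muscle, liver, epithelium). miR-23a, used in haemolysis ratios, was held only as tags with few reads (30, 43 and 56), so no such ratio is given. Alternatives were other scalings (reads of conserved arms, and size factors of 0.696, 1.04 and 1.43), other choices of tags, 1 mismatch, Fisher's exact test, edgeR's exact test with an assumed coefficient of variation of 0.4, other minimum levels, and distinct tags in place of reads.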

Additional observations from a re-analysis of the deposited data

How the results depend on the processing

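Of the log2 ratios recomputed under the alternatives, 123 kept their direction and their side of the limit, 10 lost the call, 6 gained one and 3 reversed. The 123 include settings that cannot move a ratio, namely other minimum levels, Fisher's exact test and edgeR's exact test, so their number is no measure of robustness. These tests can change only a call, and a ratio under the limit counts as kept whatever its p. The call of miR-451-5p between anagen and telogen was lost with the main 5′ start only (0.998), with tags of 21 nt or longer (0.95), with the most abundant tag (0.98), with scaling to conserved arms (0.69) and by edgeR's exact test (1.00, p = 0.234). By that exact test those of miR-451-5p between catagen and telogen (1.55, p = 0.0682), miR-144-5p between anagen and telogen (2.26, p = 0.0121) and miR-486-5p between anagen and catagen (-1.22, p = 0.149) were also lost, the last also with size factors (-0.82). Between anagen and catagen miR-144-3p became called at 2.44 with listed or matching tags. Its listed sequence ends at base 20, so these are almost the same reads as its tags of 18 to 20 nt. It reversed to -1.04 with tags of 21 nt or longer and to -1.83 with the most abundant tag. For the same pair miR-144-5p became called at -2.18 with the longer tags, which lost its call between anagen and telogen (0.76). With the most abundant tag miR-144-5p reversed to 0.16 between anagen and catagen. miR-486-5p between catagen and telogen became called with listed or matching tags (1.08) and the most abundant tag (1.28). Some ratios that count as kept became smaller in size with size factors. Between anagen and catagen miR-451-5p then had -0.16 and miR-144-5p -0.21. Between anagen and telogen miR-486-5p had -0.11 with size factors and -0.13 with the most abundant tag, but -0.70 with scaling to conserved arms. Among all arms, 27, 20 and 14 were called with at least 100 reads in both libraries and 8, 15 and 2 by edgeR, in place of 80, 70 and 37; the first has fewer arms to test and leaves out miR-144-5p in telogen. The share of miR-451-5p over 23 nt was 48.6%, 56.6% and 63.6% of distinct tags in anagen, catagen and telogen, 10.2%, 11.1% and 15.0% of matching reads, and 11.3% in anagen with tags of 21 nt or longer. The share of 18 to 20 nt over the 3 miRNAs, 12.4%, 2.67% and 2.61% of reads, was 13.9%, 9.97% and 6.51% of distinct tags and 13.9%, 3.02% and 3.22% of matching reads. The cause was not tested. No paired analysis was possible because each stage has 1 library, which also leaves no replicate to omit.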
